A study of Mus musculus with 4 samples.

Results

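Polycomb repressive complexes keep developmental and lineage genes silent through marks on histones. Polycomb repressive complex 2 (PRC2) methylates histone H3 at lysine 27, and polycomb repressive complex 1 (PRC1) attaches ubiquitin to histone H2A, binds the methyl mark and compacts chromatin. In CD4+ T cells PRC2 is known for restraining the cytokine and lineage genes of T helper subsets. The 10 genes described here encode core and accessory subunits of both complexes: Ezh1, Ezh2, Eed, Suz12, Jarid2 and Mtf2 for PRC2, and Ring1, Rnf2, Bmi1 and Cbx7 for PRC1. They were taken by symbol, and all 10 were found among the 16718 genes of the table.

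The RNA came from mouse naive CD4+ T cells stimulated for 4 hours with an antibody to CD3, a part of the T cell receptor. The labels name 2 libraries from cells with a conditional knockout of the zinc finger factor Zfp281 (cKO) and 2 from wild-type cells (WT). The labels state neither the strain, age and sex of the mice, nor the Cre driver and the floxed allele, nor whether the libraries of a genotype came from separate animals. For every gene the table has a single value in each genotype, headed only as expression and read here as FPKM, fragments scaled to gene length and to library size. The spread between libraries is therefore unknown, and none of the differences can be checked against replicates.

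Calls of higher or lower in cKO require an FDR below 0.05 in the authors' deposited table and 1 FPKM or more in at least 1 genotype. That test compares 2 sets of reads, not 2 conditions. Folds are cKO over WT, with 95% exact Clopper-Pearson intervals on estimated reads that cover counting error only. An estimated 17207378 reads stood behind the cKO column and 17364095 behind the WT column. Zfp281 itself had 0.44 FPKM in cKO and 66.3 FPKM in WT, or 0.664% of the WT level, which is in the direction of the labels. The 7 T cell markers checked had 196 to 447 FPKM in cKO and 225 to 598 FPKM in WT, and 6 of them were lower in cKO by the authors' deposited table. All 7 lay below their WT level, with folds from 0.732 to 0.965. Cd3g stood at 0.732 of its WT level, Cd5 at 0.748 and Lck at 0.804, while Cd4 was called at 0.960. The part of the high level of these markers in the calls was not tested. Over all genes with at least 10 FPKM, 22.8% were called lower and 24.1% higher. The 5 B cell markers read here were all detected, with a sum of 18.8 FPKM in cKO and 11.4 FPKM in WT, and the B cell defining gene Ms4a1 stood at 0.25 FPKM in cKO and 0.14 FPKM in WT. Of the B cell markers, Cd74 (11.9 FPKM in cKO and 7.63 FPKM in WT) and H2-Aa (3.88 FPKM in cKO and 1.57 FPKM in WT) were called higher. The 5 myeloid markers summed to 4.84 FPKM in cKO and 4.59 FPKM in WT, and among them Lyz2 was called higher, at 1.09 FPKM in cKO and 0.22 FPKM in WT. Of the CD8 T cell genes, Cd8a stood at 0.47 FPKM in cKO and 0.28 FPKM in WT, and Cd8b1 was called higher, at 17.8 FPKM in cKO and 11.5 FPKM in WT. Of 3 NK cell markers 2 were in the table, with a sum of 6.41 FPKM in cKO and 3.71 FPKM in WT, of which Klrd1, called higher, made up 6.28 FPKM in cKO and 3.62 FPKM in WT. The 3 erythroid markers summed to 0.88 FPKM in cKO and 0.71 FPKM in WT. The part of these markers in the results below was not tested, and in bulk RNA fewer cells of a type and less RNA per cell cannot be told apart.

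The promoters of the 2 members that fell most, Bmi1 and Jarid2, and of the 2 that rose, Ezh1 and Cbx7, are shown because the deleted factor belongs to a class of zinc finger proteins that bind G-rich DNA. Each is 250 bases before to 50 after a transcription start, 5′ to 3′ on the strand of the gene, from RefSeq on GRCm38.p6. Capitals mark matches to GGGGAGG on either strand, the core of the G-rich sequence ascribed to Zfp281 and related factors. The regions are chr2:18676768-18677067 for Bmi1 (plus strand), chr13:44730524-44730823 for Jarid2 (plus strand, the upstream of 2 listed starts), chr11:101226414-101226713 for Ezh1 (minus strand) and chr15:79932597-79932896 for Cbx7 (minus strand).
Bmi1: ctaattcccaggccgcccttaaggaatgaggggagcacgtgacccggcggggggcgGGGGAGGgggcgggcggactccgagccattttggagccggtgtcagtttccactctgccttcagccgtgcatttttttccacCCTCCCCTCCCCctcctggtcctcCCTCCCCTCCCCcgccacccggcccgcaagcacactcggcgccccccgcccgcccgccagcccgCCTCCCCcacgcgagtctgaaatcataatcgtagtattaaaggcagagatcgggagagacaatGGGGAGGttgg
Jarid2: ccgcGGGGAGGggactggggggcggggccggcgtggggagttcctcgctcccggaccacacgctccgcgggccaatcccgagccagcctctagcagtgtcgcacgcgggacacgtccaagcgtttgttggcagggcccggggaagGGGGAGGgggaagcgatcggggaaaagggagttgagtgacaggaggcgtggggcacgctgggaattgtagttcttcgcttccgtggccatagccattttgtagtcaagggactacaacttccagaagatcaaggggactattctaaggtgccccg
Ezh1: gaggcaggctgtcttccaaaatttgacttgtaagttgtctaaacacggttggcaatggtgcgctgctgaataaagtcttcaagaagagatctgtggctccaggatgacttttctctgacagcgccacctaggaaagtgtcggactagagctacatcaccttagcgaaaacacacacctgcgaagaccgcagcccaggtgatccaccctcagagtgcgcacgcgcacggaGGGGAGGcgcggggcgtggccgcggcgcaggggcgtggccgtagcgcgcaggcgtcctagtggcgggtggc
Cbx7: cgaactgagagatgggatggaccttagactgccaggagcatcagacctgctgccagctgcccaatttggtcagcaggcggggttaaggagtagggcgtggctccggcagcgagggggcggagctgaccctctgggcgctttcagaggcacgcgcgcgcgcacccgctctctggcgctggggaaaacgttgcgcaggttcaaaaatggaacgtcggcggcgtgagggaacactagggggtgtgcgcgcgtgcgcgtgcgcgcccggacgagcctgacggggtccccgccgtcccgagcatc

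The Bmi1 promoter held 7 matches to this motif, 2 on the plus and 5 on the minus strand, and 2 pairs of them overlapped. They began at positions -194, -112, -107, -88, -83, -24 and 40 from the start of transcription. Of all 32851 RefSeq promoters of this length 6404 (19.5%) held at least 1 match, and 4 held as many as 7. That comparison is not matched for G and C bases, which made up a median of 52.7% of all promoters. They made up 66.3% of the Bmi1 window, 64.3% of that of Jarid2, 59.3% of that of Ezh1 and 67.3% of that of Cbx7. The part of base content in the counts of matches was not tested. The Jarid2 promoter held 2 matches, at -246 and -105, and 4.20% of all promoters held 2 or more. No match lay in the window of its second start. Ezh1 had 1 match at -21 and Cbx7 none. The Cbx7 window lies inside the gene, whose upstream end at 79971143 was not searched. Among the members without a call, Eed held 2, Ring1 and Rnf2 1 each, and Ezh2 and Mtf2 none; Suz12 held none either. Thus 6 of the 10 genes had a match in the windows searched, and these 6 include genes that fell, 1 that rose and 3 that were not called.

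The same motif was counted over all genes that reached 10 FPKM in a genotype and had a listed promoter. It lay in a promoter of 29.1% of 1204 genes called lower, 33.6% of 1280 called higher and 25.8% of 2818 not called. These shares are a description, not a test, and a match is a string of letters rather than a bound site. The cores of E2F sites, TTCCCGC and TTGGCGC, were searched in the same way on both strands, because E2F factors are known to drive Ezh2 and Eed. TTCCCGC was found in the promoter of Suz12 alone among the members and in 4.60% of all promoters. TTGGCGC was found in that of Ezh2 alone among the members and in 2.45% of all promoters.

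All 10 genes were expressed in both genotypes, at 11.5 to 68.8 FPKM in cKO and 11.4 to 61.7 FPKM in WT. Cbx7 had the highest level of the 10 in both genotypes, and Ezh2 the lowest. Of the 10, 5 were called: Ezh1 and Cbx7 rose, and Jarid2, Bmi1 and Suz12 fell. Over all 10728 genes with at least 1 FPKM, 36.7% were called by the same rule, 19.9% higher and 16.9% lower. Among the 6582 genes with at least 10 FPKM, where the 10 members lie, 46.8% were called, 24.1% higher and 22.8% lower. The share of members called is therefore near that of genes of like level. The median log2 ratio was 0.02 over the members and 0.02 over all genes tested.

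**Figure D1:**
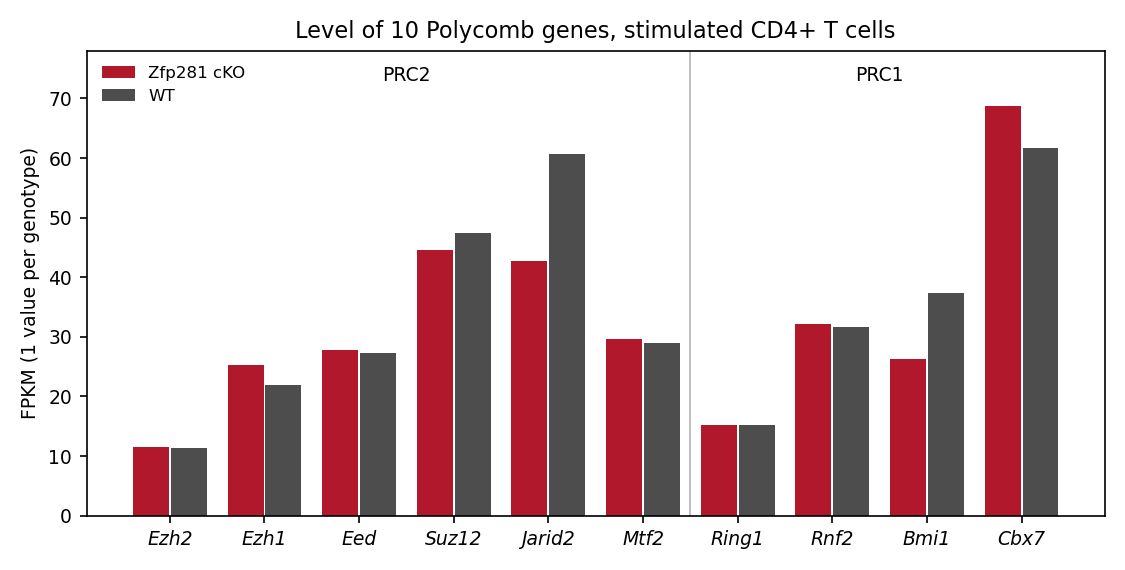
Level of each Polycomb gene in FPKM (vertical axis, from 0), in Zfp281 cKO cells (red, left bar) and WT cells (grey, right bar), with 1 deposited value per bar and hence no error bar. Jarid2 had 42.7 FPKM in cKO against 60.7 FPKM in WT and Bmi1 26.3 FPKM in cKO against 37.3 FPKM in WT, while the other bars of a pair are close in height.

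The catalytic subunits of PRC2 are the paralogues Ezh1 and Ezh2. Ezh2 is the form of dividing cells with the stronger methyltransferase activity, and Ezh1 is the form that prevails in resting cells. Ezh1 (NCBI gene 14055, chromosome 11, 101191115 to 101226463, GRCm38.p6) had 25.3 FPKM in cKO and 22.0 FPKM in WT. It rose 1.15-fold (95% interval 1.08 to 1.23), with an FDR of 2.83e-04 in the authors' deposited table. Ezh2 (NCBI gene 14056, chromosome 6, 47530274 to 47595270) had 11.5 FPKM in cKO and 11.4 FPKM in WT. Its fold was 1.01 (0.893 to 1.14) with an FDR of 0.958 in the authors' deposited table. With 529 estimated reads in each genotype, differences inside that interval were not detectable at this depth.

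Ezh1 stood above Ezh2 in both genotypes. Per length, there were 2.19 FPKM of Ezh1 for each FPKM of Ezh2 in cKO and 1.92 in WT. The change in that ratio was 1.14-fold, with a counting interval of 0.991 to 1.31 that includes 1. So the rise of Ezh1 was not shown to differ from the value of Ezh2. The division genes Mki67 and Top2a were hardly expressed, Mki67 at 0.38 FPKM in both genotypes, below the limit of 1 FPKM, and Top2a at 1.25 FPKM in cKO and 1.24 FPKM in WT. Yet of 15 replication and division genes 11 had at least 1 FPKM. In cKO 8 of these 11 lay above their WT level and 3 below. Pcna, called lower, had 138.9 FPKM in cKO and 175.4 FPKM in WT, and Mcm2, not called, 29.0 FPKM in cKO and 30.6 FPKM in WT. Mcm4 and Mcm7 were called higher, Mcm4 at 34.31 FPKM in cKO and 29.45 FPKM in WT and Mcm7 at 27.42 FPKM in cKO and 22.06 FPKM in WT. The part of cell division in the ratio of Ezh1 to Ezh2 was not tested.

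Eed and Suz12 complete the PRC2 core. Eed (NCBI gene 13626, chromosome 7, 89954654 to 89980976), the subunit that reads the methyl mark, had 27.8 FPKM in cKO and 27.3 FPKM in WT. Its fold was 1.02 (0.931 to 1.11), with an FDR of 0.827 in the authors' deposited table. Suz12 (NCBI gene 52615, chromosome 11, 79993106 to 80034123), the scaffold on which accessory subunits assemble, had 44.7 FPKM in cKO and 47.5 FPKM in WT. It fell to 0.941 of its WT level (0.897 to 0.985), with an FDR of 0.0401 in the authors' deposited table. The fall of Suz12 is small and close to the threshold. It would lie at the edge of its 95% range if the values of both genotypes had a coefficient of variation (CV) of 1.44% beyond counting error.

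The accessory subunits of PRC2 decide which of 2 alternative assemblies forms. Jarid2, a catalytically inactive relative of the JmjC demethylases, binds PRC2 together with Aebp2, and Mtf2 belongs to the Polycomb-like proteins, which bring PRC2 to unmethylated CpG islands. Jarid2 (NCBI gene 16468, chromosome 13, 44730774 to 44921643) had 42.7 FPKM in cKO and 60.7 FPKM in WT. It fell by 29.7%, to 0.703 of its WT level (0.676 to 0.731), on an estimated 4295 reads in cKO and 6163 reads in WT. The FDR was 3.26e-71 in the authors' deposited table. This was the largest fall of the 10 genes, and a CV of 12.6% on the values of both genotypes would bring it to the edge of its 95% range. That range is not adjusted for the number of genes. With an assumed CV of 10% and p-values adjusted over all genes with at least 1 FPKM, the call of Jarid2 was lost, as were those of the other 4 members called. Dtnbp1, which ends 432 bases from Jarid2, had 10.1 FPKM in cKO and 10.1 FPKM in WT and was not called.

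Mtf2 (NCBI gene 17765, chromosome 5, 108065660 to 108109219) had 29.6 FPKM in cKO and 29.0 FPKM in WT. Its fold was 1.02 (0.963 to 1.08), with an FDR of 0.715 in the authors' deposited table. The ratio of Jarid2 to Mtf2 was thus 1.44 in cKO and 2.09 in WT, a change to 0.689 (0.642 to 0.739) that no scaling of the columns can alter. Aebp2, the partner of Jarid2, had 56.4 FPKM in cKO and 53.7 FPKM in WT and was not called, with an FDR of 0.0789 in the authors' deposited table. The ratio of Jarid2 to Aebp2 was 0.757 in cKO and 1.13 in WT. By FPKM, the Jarid2 transcript therefore stood below that of Aebp2 in cKO and above it in WT. These are ratios of transcripts, and the amounts of the proteins and of the assemblies were not measured.

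Phf1, another Polycomb-like protein gene, rose 1.22-fold (1.16 to 1.28), to 85.4 FPKM in cKO against 70.0 FPKM in WT. Phf19, the third of them, was hardly expressed, with 1.05 FPKM in cKO and 0.78 FPKM in WT and was not called. Together Jarid2, Aebp2, Mtf2, Phf1 and Phf19 summed to 215.1 FPKM in cKO and 214.2 FPKM in WT. Within that nearly equal sum, Jarid2 made up 19.8% in cKO and 28.3% in WT, while Phf1 made up 39.7% in cKO and 32.7% in WT. The histone-binding subunits Rbbp4 and Rbbp7, which other chromatin complexes also contain, both fell. Rbbp7 fell to 0.853 of its WT level (0.818 to 0.890) and Rbbp4 to 0.939 (0.898 to 0.983). Of the 7 further PRC2 genes tested, 1 rose, 2 fell and 4 were not called, a share near the 36.7% called over all genes and the 46.8% called at 10 FPKM or more.

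**Figure D2:**
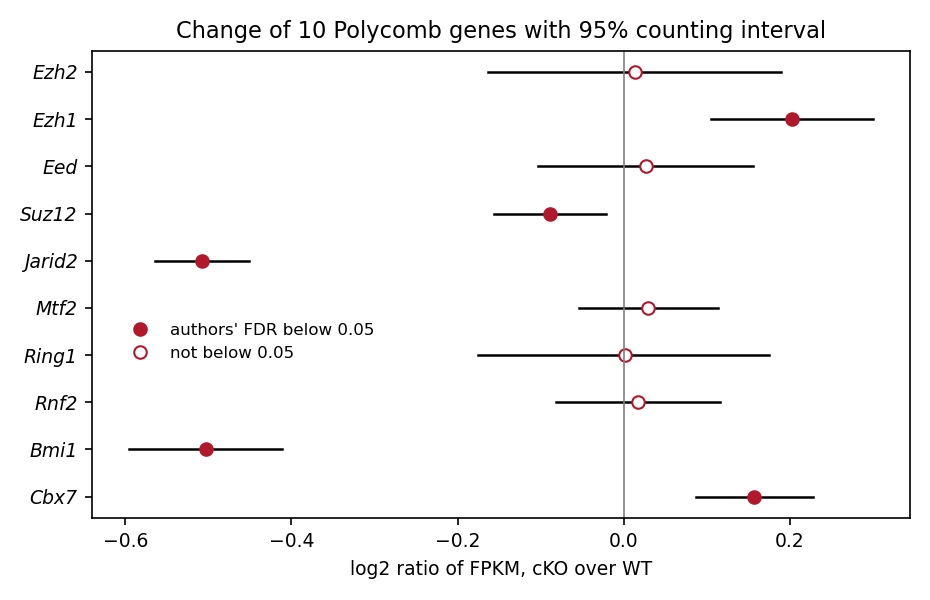
Log2 ratio of FPKM in cKO over WT for the 10 genes (points), PRC2 above and PRC1 below, with the 95% counting interval as a line and filled points for an FDR below 0.05 in the authors' deposited table. Jarid2 and Bmi1 lie apart from the others at -0.51 and -0.50, and the other 8 lie between -0.09 and 0.20.

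The catalytic core of PRC1 is a RING-type ubiquitin ligase, encoded by Ring1 or Rnf2 (also called RING1B). Ring1 (NCBI gene 19763, chromosome 17, 34020792 to 34024680) had 15.3 FPKM in cKO and 15.3 FPKM in WT. Rnf2 (NCBI gene 19821, chromosome 1, 151469398 to 151500991) had 32.1 FPKM in cKO and 31.7 FPKM in WT. Neither was called: the fold was 1.001 (0.886 to 1.13) for Ring1 and 1.01 (0.945 to 1.08) for Rnf2. Rnf2 was the more abundant ligase transcript, with 67.8% of the summed FPKM of the pair in cKO and 67.5% in WT. Their ratio changed to 0.989 (0.859 to 1.14), an interval that includes 1.

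Each PRC1 also holds 1 of 6 PCGF proteins, and Bmi1 is the member of this family best known for self-renewal of blood stem cells and for silencing of the Cdkn2a locus. Bmi1 (NCBI gene 12151, chromosome 2, 18677018 to 18686629) had 26.3 FPKM in cKO and 37.3 FPKM in WT. It fell by 29.4%, to 0.706 of its WT level (0.662 to 0.752), on an estimated 1635 reads in cKO and 2338 reads in WT. The FDR was 4.85e-26 in the authors' deposited table. A CV of 12.4% on the values of both genotypes would bring the fall to the edge of its unadjusted 95% range. The call was lost with an assumed CV of 10% and adjustment over all genes with at least 1 FPKM. Of the 6582 genes with at least 10 FPKM, 126 (1.91%) had a log2 ratio as low as that of Bmi1 or lower, Jarid2 and Bmi1 among them.

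Commd3, which lies 787 bases upstream of Bmi1 on the same strand, had 26.96 FPKM in cKO and 25.24 FPKM in WT and was not called. The fall of Bmi1 was thus not seen in its nearest neighbour. Of the stretches of 50 bases in GENCODE transcripts of Bmi1, 16.7% occur also in 2 annotated pseudogenes, so part of its reads may be shared with these copies. The corresponding share was 0% for Jarid2 and Ring1 and at most 5.82% for the others. The larger of these shares were those of Mtf2 (5.56%), shared with Tmed5 on the opposite strand and with Gm49301, and of Eed (5.82%), shared with E230029C05Rik on the opposite strand and with 3 further genes. Tmed5 was called lower, at 28.3 FPKM in cKO and 33.96 FPKM in WT. Rnf2 shared 2.59% with Trmt1l on the opposite strand, called higher at 24.4 FPKM in cKO and 20.8 FPKM in WT. The part of these genes in the values of Mtf2 and Rnf2 was not tested.

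The other PCGF genes did not move together. Pcgf3 rose 1.33-fold (1.18 to 1.498), to 10.4 FPKM in cKO against 7.78 FPKM in WT. Pcgf6 fell to 0.795 of its WT level (0.714 to 0.885), at 16.6 FPKM in cKO and 20.8 FPKM in WT. Pcgf1 and Pcgf5 were not called, and Pcgf2, the closest paralogue of Bmi1, was at 0.15 FPKM in cKO and 0.38 FPKM in WT, below the limit of 1 FPKM. Bmi1 made up 34.3% of the summed FPKM of the 6 genes in cKO and 41.5% in WT, and it was the most abundant of them in both genotypes. The sum of the family was 76.9 FPKM in cKO and 89.96 FPKM in WT. The ratio of the Bmi1 transcript to that of Rnf2, which encodes a ligase partner, was 0.821 in cKO and 1.18 in WT, a change to 0.697 (0.635 to 0.766).

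CBX proteins give canonical PRC1 its hold on methylated histone H3. Cbx7 (NCBI gene 52609, chromosome 15, 79915804 to 79971143) had 68.8 FPKM in cKO and 61.7 FPKM in WT. It rose 1.11-fold (1.06 to 1.17), with an FDR of 9.75e-05 in the authors' deposited table. Apobec3, on the opposite strand, overlaps the 3′ end of Cbx7 and had 49.2 FPKM in cKO and 32.2 FPKM in WT. The shared stretches make up 0.760% of the Cbx7 transcript sequence, and their part in the rise was not tested. No source used here says whether reads were counted by strand.

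The paralogues Cbx2 and Cbx6 rose by more than Cbx7. Cbx2 rose 1.61-fold (1.43 to 1.82), to 11.3 FPKM in cKO against 6.97 FPKM in WT, and Cbx6 rose 1.44-fold (1.33 to 1.56), to 15.4 FPKM in cKO against 10.7 FPKM in WT. The ratio of Cbx7 to Cbx2 was 6.12 in cKO and 8.86 in WT, a change to 0.691 (0.607 to 0.785), and that of Cbx7 to Cbx6 changed to 0.774 (0.704 to 0.851). Cbx8 was not called. Cbx7 was the most abundant of these 4 transcripts in both genotypes, at 68.6% of their summed FPKM in cKO and 73.8% in WT. Their sum was 100.2 FPKM in cKO and 83.6 FPKM in WT, so these CBX transcripts summed to more and PCGF transcripts to less in cKO. Per FPKM of Bmi1 there were 2.61 FPKM of Cbx7 in cKO and 1.65 in WT, a change of 1.58-fold (1.46 to 1.71).

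**Figure D3:**
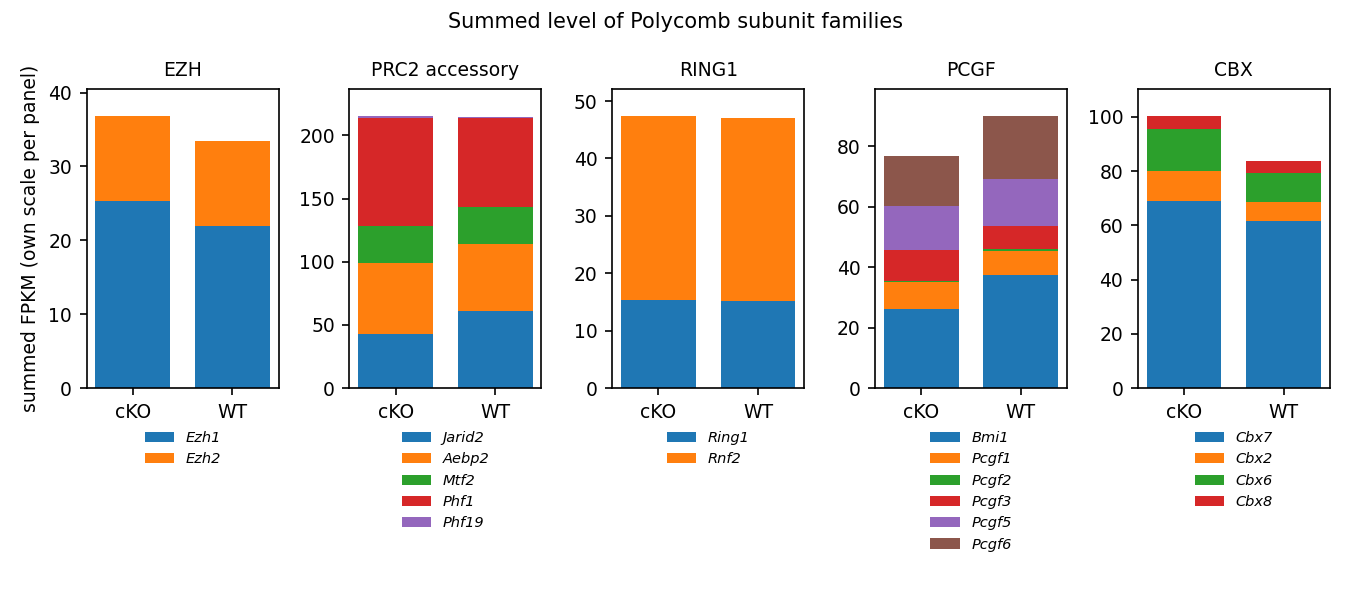
Summed FPKM of the catalytic EZH pair, PRC2 accessory subunits, RING1 ligases, PCGF genes and 4 CBX genes, each panel on its own axis from 0, with cKO as the left bar and WT as the right bar and colours for genes. The PCGF sum was 76.9 FPKM in cKO and 89.96 FPKM in WT, and the CBX sum 100.2 FPKM in cKO and 83.6 FPKM in WT.

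**Figure D4:**
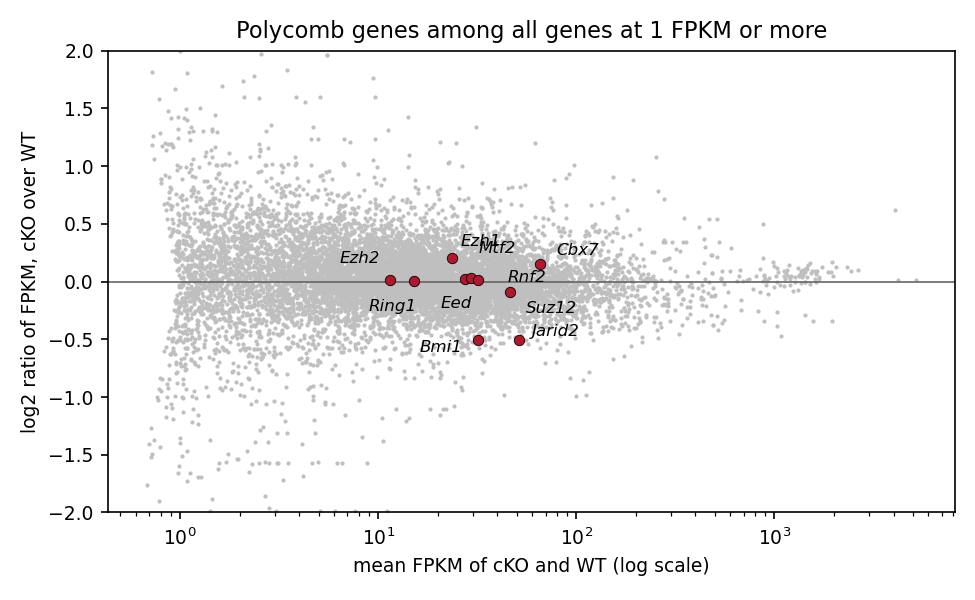
Log2 ratio of FPKM in cKO over WT against mean FPKM (log axis) for genes that reached 1 FPKM in a genotype (grey), with the 10 Polycomb genes in red. The axis ends at a log2 ratio of 2 in either direction, beyond which 139 of the 10728 genes lie, and Jarid2 and Bmi1 sit at the lower margin of genes of like level.

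The rest of the Polycomb system was read from a list of 38 further genes, of which 37 were in the table and 34 had at least 1 FPKM. Of these 34, 7 rose, 10 fell and 17 were not called. Over all genes with at least 1 FPKM 36.7% were called, 19.9% higher and 16.9% lower, a smaller share than the 17 of 34 of the list. At 10 FPKM or more, where 16 of the 17 calls lie, 46.8% of all genes were called. The difference in share between the list and all genes was not tested. The median log2(FPKM + 1) difference was 0.04 over the list and 0.02 over all genes tested. As with the members, the complexes did not move as a whole.

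Of the canonical PRC1 genes, 4 rose, 1 fell and 3 were not called. Besides Cbx2 and Cbx6, the polyhomeotic gene Phc1 rose 1.16-fold (1.07 to 1.27) and Scmh1, which encodes a protein that associates with polyhomeotic subunits, rose 1.23-fold (1.09 to 1.39). Phc3 was the gene that fell, to 0.937 of its WT level. Variant PRC1 complexes use RYBP or YAF2 in place of a CBX protein, and in their list 4 genes fell, 1 rose and 4 were not called. The difference in direction between these 2 small lists was not tested, and over all genes with at least 10 FPKM 24.1% were called higher and 22.8% lower. Bcor, the corepressor of the variant complex built on PCGF1, fell to 0.653 of its WT level (0.621 to 0.686), at 23.0 FPKM in cKO and 35.2 FPKM in WT. Bcorl1, its paralogue, rose 1.30-fold (1.13 to 1.503) at lower levels of 4.34 FPKM in cKO and 3.33 FPKM in WT.

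Yaf2 fell to 0.763 of its WT level (0.657 to 0.885), whereas its paralogue Rybp, at 21.7 FPKM in cKO and 20.3 FPKM in WT, was not called. E2f6 and Mga, DNA-binding subunits of the PCGF6 complex, fell to 0.848 (0.747 to 0.965) and 0.907 (0.867 to 0.949) of their WT levels. Pcgf6 itself fell as well, as given above. Of the genes whose products remove Polycomb marks, 2 of 6 fell and none rose, a share called no higher than the 46.8% of all genes with at least 10 FPKM. Kdm6b, an H3K27 demethylase induced by activation, had 142.0 FPKM in cKO and 188.4 FPKM in WT and fell to 0.754 (0.739 to 0.769). Its paralogue Kdm6a was not called, at 21.4 FPKM in cKO and 20.03 FPKM in WT. Usp16, a deubiquitinase of histone H2A, fell to 0.851 (0.795 to 0.911), and Bap1, Asxl1 and Asxl2 were not called.

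**Figure D5:**
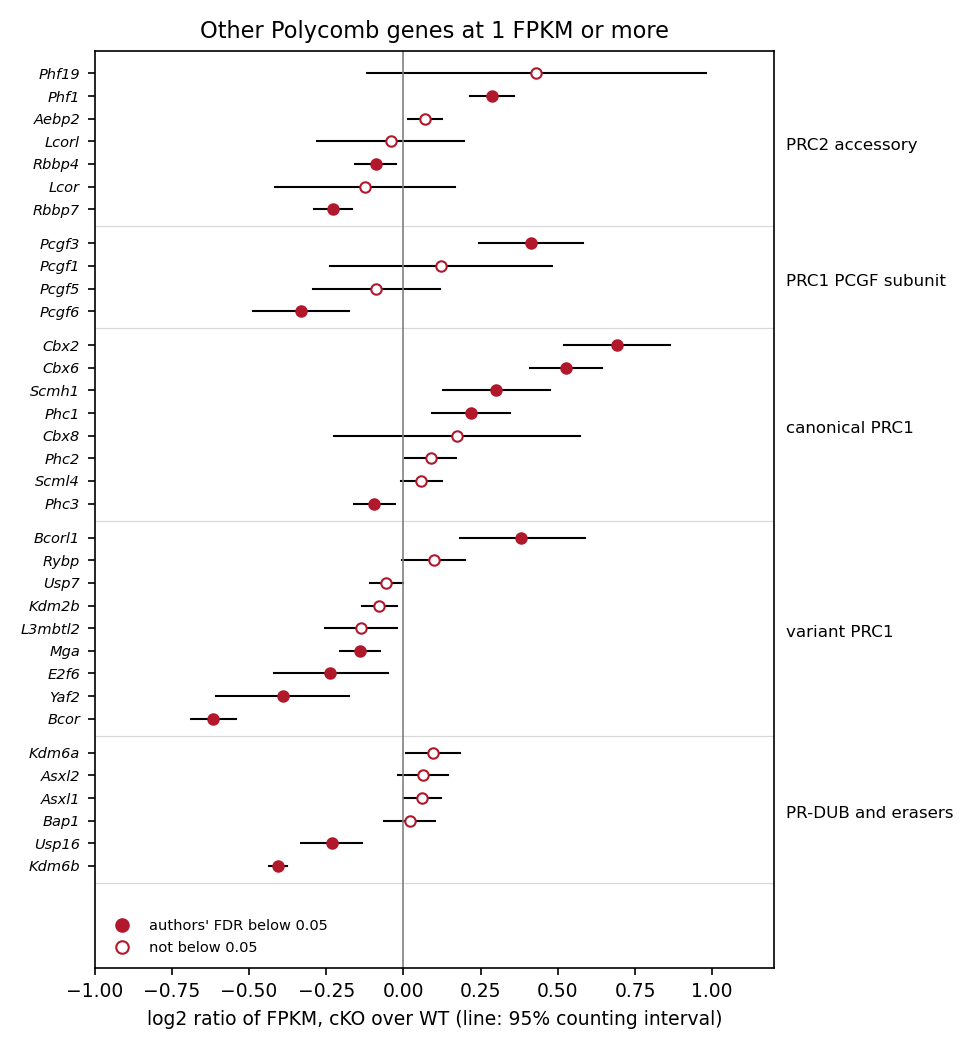
Log2 ratio of FPKM in cKO over WT for the 34 further Polycomb genes at 1 FPKM or more, by group, with 95% counting intervals as lines and filled points for an FDR below 0.05 in the authors' deposited table. Cbx2 (0.69) and Cbx6 (0.53) lie farthest to the right among filled points, and Bcor (-0.62) and Kdm6b (-0.41) farthest to the left.

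Genes known as Polycomb targets were looked at last. Of 8 T helper genes known as targets of Ezh2, 3 were in the table, and all 3 were called, in both directions. Over all genes with at least 1 FPKM 36.7% were called, and 3 genes are too few to set against that share. Eomes, a T-box factor of memory and cytotoxic cells, rose 2.06-fold (1.58 to 2.73), to 2.59 FPKM in cKO against 1.26 FPKM in WT. Gata3, the factor of type 2 helper cells, rose 1.30-fold (1.13 to 1.48), to 9.29 FPKM in cKO against 7.17 FPKM in WT. Tbx21, the factor of type 1 helper cells, fell to 0.586 of its WT level (0.420 to 0.816), at 1.36 FPKM in cKO and 2.32 FPKM in WT. Eomes and Tbx21 rest on few reads, 166 in cKO and 81 in WT for Eomes. Of 56 developmental genes that Polycomb silences in most tissues, 11 were in the table, and none reached 1 FPKM in either genotype. They lay between 0.01 and 0.31 FPKM in cKO and between 0.01 and 0.28 FPKM in WT, where 0.01 is the lowest value the table lists, and none was called at any level.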

How the data were processed

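Per the labels' protocols, total RNA of 4 libraries was read on a BGISEQ-500 instrument. Bowtie2 2.2.5 and the build mm10 stand in the submitters' processing notes, and no source used here gives the quantification tool, the annotation or the test. The deposited table gives 1 value per gene and genotype. The header says only "Expression"; these values were read as FPKM because, multiplied by gene length, they sum to nearly the same total in both columns. The log2 fold changes, as deposited, are the log2 ratios of these values. The deposited p-value is the authors' own, and the deposited FDR, handled as a score, reaches 1.03. Of the gene IDs 16685 were found in RefSeq for GRCm38.p6, which gave coordinates and promoters; overlaps and shared stretches of 50 bases came from GENCODE M21.

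Reads per gene were estimated from the FPKM step of genes with reads in cKO alone, whose p-values give their number of reads: FPKM times length (less 24 bases) came within 10% of the step for 86.3% of 387 such genes. The scale, 57.0 FPKM bases per read, was fitted on deposited p-values, as was the depth ratio of cKO to WT, 0.991. A negative binomial test of the estimated reads gave log10 p-values close to those deposited (r = 0.999 over 16707 genes, not independent replicates), and part of this agreement was fitted. The reads serve intervals and alternatives only. The read tests were tested on simulated data. Python 3.11.15, SciPy 1.17.1 and pandas 2.3.3 were used.

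Of the genes listed, 2 are not reported here. Members and lists were chosen with earlier results of these data known. Named genes were the members, Zfp281 and, per group of the wider lists, up to 4 called genes with the largest change; other named genes were chosen after their values were seen. Intervals of a ratio between genes are exact conditional intervals of the odds ratio of reads. Alternatives were other filters, thresholds, pseudocounts and scalings, and an assumed CV.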

Additional observations from a re-analysis of the deposited data

How the results depend on the processing

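No paired analysis was possible because the table holds 1 value per genotype, and for the same reason no library could be left out. The 5 calls among the members, 2 higher and 3 lower, were the same genes with no filter, at 5 FPKM, at 10 FPKM (an alternative chosen after seeing the data) and with the test recomputed on estimated reads and the median change set to 0. A minimum of 1.2-fold left 2 members, Bmi1 and Jarid2, against 2187 of all genes, 10 of the wider Polycomb genes and 3 of the target genes. The authors' marks, which need 2-fold and an FDR of 0.001, left 0 members, 0 wider Polycomb genes, 1 target gene and, with no filter on level, 157 of all genes, against 3941. Assuming that the values of both genotypes had a CV of 10% beyond counting error left 0 members, 0 of the 17 wider Polycomb genes, 192 of all genes and 1 target gene, Eomes. At 20% 0 members, 0 wider genes, 17 of all genes and 0 target genes were left. Of the 3 target gene calls, 1 was left at 5 FPKM and 0 at 10 FPKM, since fewer genes were tested. The 1.2-fold minimum and the authors' marks are stricter thresholds. An assumed CV keeps the threshold and adds a spread that the deposited test leaves out. The split of all calls, 2130 higher and 1811 lower, was 2063 higher and 2151 lower with the test recomputed on estimated reads and the median change set to 0, which changes both the test and the scaling. Each member's log2(FPKM + 1) difference stayed within its counting interval under all 4 alternatives of pseudocount and scaling (40 of 40 values), and the members' median lay between 0.00 and 0.02. The median and upper-quartile shifts were only 0.0152 and -0.00807 in log2, so the values had little room to leave intervals built on the same ratios. If a column is a mean of 2 libraries, a given CV between libraries counts for less.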

Other observations

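Kdm2b, which encodes the CpG-binding subunit of the variant complex built on PCGF1, had 57.9 FPKM in cKO and 61.2 FPKM in WT. Its p-value in the authors' deposited table was 0.962, whereas the p-value recomputed from its estimated reads, 4908 in cKO and 5228 in WT, was 0.00636. Of 9134 genes with at least 1 FPKM and more than 200 estimated reads, 4 had a deposited p over 0.5 and a recomputed p under 0.05. The deposited FPKM and p-value of these genes cannot both come from the same reads under this test, and the cause was not tested.

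Of 15 DNA replication and division genes, 11 had at least 1 FPKM, and 2 rose, 1 fell and 8 were not called, against 36.7% called over all genes. Mcm4 and Mcm7, subunits of the replicative helicase, were the 2 that rose, and Pcna, the sliding clamp of DNA polymerase, was the gene that fell, at 138.9 FPKM in cKO and 175.4 FPKM in WT.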
